A study of Mus musculus with 29 samples.

Results

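The 10 genes described here, Serpinh1, P4ha1, P4ha2, Plod1, Plod2, Pcolce, Adamts2, Lox, Loxl1 and Loxl2, encode proteins that fold, modify, trim and crosslink collagen. They were picked by symbol from the 24770 gene rows of the count table, and all 10 were found. RNA was sequenced from brown adipose tissue (BAT) and gastrocnemius muscle (SkM) of wild-type male C57BL/6J mice. Each tissue had a control group with free access to food, a calorie restriction (CR) group, a treadmill exercise training (EX) group and a group with both interventions (CREX). The interventions began at 8 weeks of age and lasted 8 weeks. Food was lowered step by step to 70% of free intake in the CR and CREX groups. EX and CREX mice ran on the treadmill, and their tissues were taken a day after the last run. BAT had 3 control, 4 CR, 4 EX and 4 CREX libraries, and SkM had 4 control, 3 CR, 4 EX and 3 CREX libraries.

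Fibrillar collagen is made as procollagen in the endoplasmic reticulum. There, prolyl 4-hydroxylases, whose catalytic alpha subunits include the products of P4ha1 and P4ha2, hydroxylate prolines so that the triple helix is stable at body temperature, and lysyl hydroxylases encoded by Plod genes modify lysines that later serve in crosslinks. Serpinh1 encodes HSP47, a chaperone that binds folded procollagen. Outside the cell, ADAMTS2 removes the amino-terminal propeptide, PCOLCE enhances removal of the carboxy-terminal propeptide by BMP1, and the copper-dependent lysyl oxidases LOX, LOXL1 and LOXL2 oxidize lysines of collagen and elastin to start covalent crosslinks. Prolyl and lysyl hydroxylases and lysyl oxidase are known targets of hypoxia-inducible factor in many cell types. Fibroblasts and other mesenchymal cells make most fibrillar collagen in adipose tissue and muscle.

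RefSeq promoter sequences (build GRCm38.p6) were matched for 6 of the 10 genes, P4ha1, P4ha2, Plod1, Serpinh1, Pcolce and Adamts2. Shown here are the 250 bases before a RefSeq transcription start of both prolyl hydroxylase genes and of Serpinh1. P4ha2 differed between the tissues in its CR response, and Serpinh1 was lower under CR in both. The P4ha2 window lies inside the span of its gene in the GENCODE annotation, which begins at 54100095. The Pcolce window also lies inside its gene span. Capitals mark the core letters of the hypoxia response element, searched as ACGTG and GCGTG on both strands, where neighbouring matches could overlap.
P4ha1, + strand, chr10:59323046-59323295: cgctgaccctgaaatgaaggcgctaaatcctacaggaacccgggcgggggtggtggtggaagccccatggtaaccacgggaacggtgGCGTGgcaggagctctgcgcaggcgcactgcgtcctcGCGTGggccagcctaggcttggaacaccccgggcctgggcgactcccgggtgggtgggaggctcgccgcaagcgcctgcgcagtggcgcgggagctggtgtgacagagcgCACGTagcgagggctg
P4ha2, + strand, chr11:54100674-54100923: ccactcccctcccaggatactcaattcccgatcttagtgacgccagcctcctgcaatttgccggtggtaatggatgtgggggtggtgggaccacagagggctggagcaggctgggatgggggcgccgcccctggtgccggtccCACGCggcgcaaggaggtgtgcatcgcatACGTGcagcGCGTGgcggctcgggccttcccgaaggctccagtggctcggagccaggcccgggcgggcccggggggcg
Serpinh1, - strand, chr7:99353240-99353489: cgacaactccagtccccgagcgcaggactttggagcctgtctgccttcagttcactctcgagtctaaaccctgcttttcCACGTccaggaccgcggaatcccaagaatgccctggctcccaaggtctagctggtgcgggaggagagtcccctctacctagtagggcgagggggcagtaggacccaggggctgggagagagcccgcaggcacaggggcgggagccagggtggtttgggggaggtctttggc
P4ha1 and P4ha2 held 3 matches each and Serpinh1, Plod1 and Pcolce 1 each, whereas the Adamts2 window held 0. Of all 32851 windows of this length, 38.6% held at least 1 match and 6.58% held 3 or more. The SMAD core CAGAC, searched on both strands, had 1 match in Serpinh1 and 1 in Plod1 and was found in 42.2% of all windows. A match describes letters and not a bound site.

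BAT libraries totalled 21047242 to 24919377 counts, SkM libraries 23050918 to 23425284, and the 10 genes held between 26 and 2901 counts in every library. Levels are given as CPM, counts scaled to the library total with TMM factors within a tissue. Brown adipocyte markers summed to between 10292 and 15314 CPM in every BAT library and muscle fibre markers to between 123621 and 202800 CPM in every SkM library. Ucp1 was at or near 0 in SkM. Of the same list, Adipoq averaged 0.791 CPM in control, 8.07 in CR, 3.32 in EX and 6.30 CPM in CREX libraries of SkM. Plin1 averaged 0.181, 1.9965, 1.16 and 1.66 CPM in the same order. For both genes CR libraries overlapped control libraries, and CREX libraries overlapped EX libraries. The SkM means of Fabp4, Cidea and Dio2 went the other way, lower in CR than in control and in CREX than in EX. Muscle fibre markers (10 of 10 in the table) reached 3.62 to 752 CPM in control, 21.4 to 1601 in CR, 6.43 to 4321 in EX and 1125 to 6948 CPM in CREX libraries of BAT. One BAT library stood apart: in EX replicate 3 the 6 tendon markers summed to 68.7 CPM, against at most 3.10 CPM in the other BAT libraries. The labels do not say that the numbered libraries came from separate mice, so the p-values measure the spread between libraries, which may be technical.

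Per length of transcript, Serpinh1 was the most abundant of the 10 genes in both tissues. In control mice its mean level was 49.3 ± 2.16 CPM per kb of exon in BAT (SD, n = 3) and 12.5 ± 1.24 in SkM (SD, n = 4). In BAT it was followed by Plod1 (6.71), Loxl1 (5.67), Pcolce (5.39), P4ha1 (3.41), Lox (3.05), Loxl2 (0.874), Adamts2 (0.677), P4ha2 (0.447) and Plod2 (0.429 CPM per kb). The libraries of neighbours in this order overlapped except between Serpinh1 and Plod1, Pcolce and P4ha1, and Lox and Loxl2. In SkM the order after Serpinh1 was Pcolce (5.99), P4ha1 (5.46), Plod1 (3.98), Loxl1 (3.62), P4ha2 (2.40), Loxl2 (1.12), Adamts2 (0.589), Lox (0.469) and Plod2 (0.419 CPM per kb). There the libraries of neighbours overlapped between Pcolce and P4ha1, Plod1 and Loxl1, Adamts2 and Lox, and Lox and Plod2. P4ha1 lay above P4ha2, and Loxl1 above Lox and Loxl2, in the control libraries of both tissues.

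**Figure D1:**
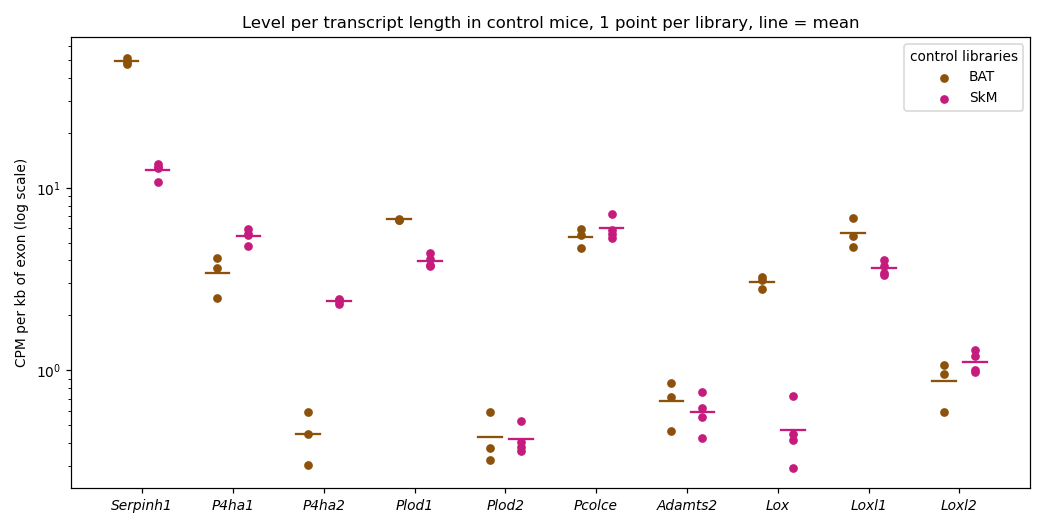
Level of each gene in the control libraries of BAT (3 points) and SkM (4 points) in CPM per kb of exon on a log axis, with a line at the mean. Serpinh1 stands highest in both tissues, Lox is higher in BAT (3.05 against 0.469) and P4ha2 higher in SkM (2.40 against 0.447).

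Between the control libraries of both tissues, 5 of the 10 genes passed the thresholds used throughout, an edgeR p of under 0.05 after adjustment over all genes together with a change of more than 1.5-fold. Errors after ± are standard errors on the log2 scale. The labels do not say whether same-numbered BAT and SkM libraries came from 1 mouse, and they were treated as independent. Of all 13797 genes tested 60% did (29.8% higher and 30.2% lower in BAT). Lox (log2 fold change 2.41 ± 0.21, edgeR adjusted p = 1.2e-06) and Serpinh1 (log2 fold change 1.71 ± 0.09, edgeR adjusted p = 1.3e-08) were higher in BAT. P4ha2 (log2 fold change -2.70 ± 0.17, edgeR adjusted p = 4.0e-08), P4ha1 (log2 fold change -0.95 ± 0.15, edgeR adjusted p = 1.5e-04) and Loxl2 (log2 fold change -0.63 ± 0.19, edgeR adjusted p = 0.0112) were higher in SkM. For Loxl2 the call was lost without SkM control replicate 1 or 4 or BAT control replicate 3 (log2 fold change -0.58 to -0.41, under the fold minimum). These differences are relative to all counts of a library and take no account of RNA content.

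Averaged over sedentary and trained mice (the CR main effect, 1 edgeR fit over the 15 BAT libraries), 5 of the 10 matrix-maturation genes were lower in BAT, Loxl2, Loxl1, Adamts2, Pcolce and Serpinh1, and 0 were higher. Of all 13922 genes 7.83% were called lower and 3.96% higher. The median log2 fold change of the 10 genes was -0.48, against -0.000467 over all genes. Without EX replicate 3 the main effect gave 6 genes, the 5 lower ones and P4ha2 higher, and log2 fold changes of -1.17 for Loxl1, -0.59 for Pcolce and -0.63 for Serpinh1 (edgeR adjusted p = 0.00129, 1.3e-04 and 0.00926). Sedentary CR mice alone, set against control mice, gave 6 called genes, the same 5 lower and P4ha2 higher, where 10.7% of all genes were called (6.86% lower and 3.87% higher). For 6 of the 10 genes the libraries of these groups did not overlap, against 33.6% of all genes. Between the CREX and EX groups 1 gene passed, Pcolce, where 4.48% of all genes did (363 to 582 genes with 1 library left out, against 594), and 3 genes did not overlap, against 18%. The pairwise counts hung on single libraries: CR against control gave 3 genes without control replicate 1 or 2, and CREX against EX gave 0 without CREX replicate 2 or 3 or EX replicate 2 and 5 without EX replicate 4. In bulk tissue, fewer cells of a type and less RNA per cell cannot be told apart.

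In SkM, the CR main effect over 14 libraries called 3 genes lower, Loxl2, Loxl1 and Serpinh1, and 1 higher, Lox. Among all 13610 genes 8.13% were called lower and 5.99% higher. The median log2 fold change of the 10 genes was -0.32, against 0.0042 over all genes. CR against control called 5 genes (Loxl1, Loxl2, Serpinh1 and Pcolce lower, Lox higher) where 9.6% of all genes were called (5.32% lower and 4.27% higher), and in 5 genes the libraries did not overlap, against 27.6% of all. CREX against EX called 0 with edgeR, where 8.87% of all genes were called (1163 genes, and 343 to 2570 with 1 library left out), although 6 of the 10 had an unadjusted p under 0.05 and DESeq2 called 1. The libraries of 5 genes did not overlap in this comparison, against 27.7% of all genes. Leaving out 1 library gave 3 genes for CR against control without CR replicate 2 or 3 or control replicate 3 and 2 without control replicate 1. It gave 1 gene for CREX against EX without CREX replicate 1 or 3 or EX replicate 1 or 4.

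**Figure D2:**
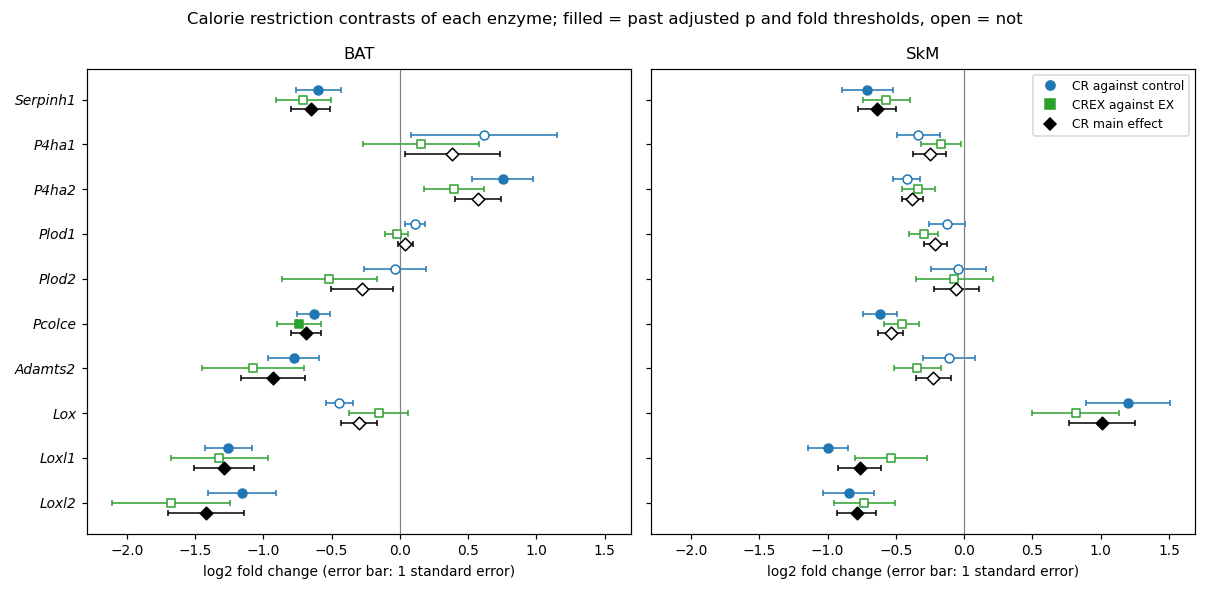
Log2 fold change of each gene for CR against control, CREX against EX and the CR main effect in BAT and SkM, with bars of 1 standard error; filled symbols passed both thresholds. Loxl1, Loxl2, Serpinh1 and Pcolce lie left of 0 in both tissues, and Lox lies at -0.30 in BAT and 1.01 in SkM for the CR main effect.

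Serpinh1 (chromosome 7 from 99345376 to 99353239 in GRCm38), the procollagen chaperone, was lower in calorie-restricted mice of both tissues. In BAT its level was 126, 116 and 119 CPM in the control libraries and 101, 80.4, 56.01 and 80.8 CPM in the CR libraries. In the EX libraries it was 119.7, 109, 116 and 76.2 CPM, and in the CREX libraries 88.7, 52.2, 58.9 and 57.4 CPM. All CR libraries were below all control libraries, whereas CREX replicate 1 exceeded EX replicate 4. Averaged over both activity levels, the CR effect was called (log2 fold change -0.65 ± 0.14, edgeR adjusted p = 0.0041) and remained so with each of the 15 libraries left out. CR against control was also called (log2 fold change -0.60 ± 0.17, edgeR adjusted p = 0.04), but not without CR replicate 2, 3 or 4 or control replicate 1, 2 or 3 (log2 fold change -0.62 to -0.47, edgeR adjusted p = 0.00506 to 0.118). CREX against EX was not (log2 fold change -0.71 ± 0.20, edgeR adjusted p = 0.0687), but it was called without CREX replicate 1 or EX replicate 4 (log2 fold change -0.90 and -0.84, edgeR adjusted p = 0.0179 and 0.0321).

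SkM held a lower level than BAT of Serpinh1. Its libraries read 33.2, 26.2, 31.7 and 31.2 CPM in control, 25.6, 15.1 and 15.1 CPM in CR, 30.3, 26.1, 26.4 and 30.2 CPM in EX and 15.99, 15.5 and 25.95 CPM in CREX mice. Every CR library was below every control library and every CREX library below every EX library, with CR replicate 1 and CREX replicate 3 just under the freely fed range. Here the CR main effect was called (log2 fold change -0.64 ± 0.14, edgeR adjusted p = 0.00339), and so was CR against control (log2 fold change -0.71 ± 0.19, edgeR adjusted p = 0.031). Without CR replicate 2 or 3 or CREX replicate 1 or 2 (log2 fold change -0.58 to -0.57, edgeR adjusted p = 0.00695 to 0.0109) the main effect fell just short of the fold minimum. CR against control was not called without CR replicate 2 or 3 or control replicate 1, 3 or 4 (log2 fold change -0.71 to -0.59, edgeR adjusted p = 0.0586 to 0.102). The contrast of CREX and EX was not called (log2 fold change -0.57 ± 0.17, edgeR adjusted p = 0.0588) except without CREX replicate 3 (log2 fold change -0.84, edgeR adjusted p = 0.00752). Tendon markers (6 of 6 in the table) also moved in SkM, summing to 42.8 to 53.2 CPM in control, 30.04 to 47.8 in CR, 52.4 to 82.7 in EX and 21.6 to 35.9 CPM in CREX libraries. The CREX and EX sums did not overlap, so tendon RNA and diet cannot be told apart there. With their score as a covariate the main effect of Serpinh1 was -0.38 (edgeR adjusted p = 0.109). Under the same covariate CR against control stayed called (log2 fold change -0.75, edgeR adjusted p = 0.00721), and CREX against EX was -0.20 (edgeR adjusted p = 0.963).

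P4ha2 (chromosome 11 from 54100095 to 54131665), an alpha subunit of prolyl 4-hydroxylase, read 3.68, 1.89 and 2.79 CPM in control, 4.93, 5.53, 3.65 and 4.63 CPM in CR, 2.13, 2.99, 3.82 and 2.61 CPM in EX and 5.12, 3.10, 3.31 and 3.69 CPM in CREX libraries of BAT. The highest values were in CR and CREX mice, but control replicate 1 and EX replicate 3 reached into their range. The contrast of CR and control was called (log2 fold change 0.75 ± 0.22, edgeR adjusted p = 0.0369), though not without CR replicate 1, 2 or 4 or control replicate 2 or 3 (log2 fold change 0.54 to 0.76, edgeR adjusted p = 0.0772 to 0.124). The CR main effect had an adjusted p under the threshold and a fold change just under the minimum (log2 fold change 0.57 ± 0.17, edgeR adjusted p = 0.0162), and it passed both without CR replicate 3, control replicate 1, CREX replicate 2 or 3 or EX replicate 3 (log2 fold change 0.60 to 0.70). P4ha2 is more abundant in SkM than in BAT, and BAT libraries differed in muscle RNA. The 2 CR libraries with the highest P4ha2, replicates 1 and 2, had the lowest muscle marker sums of their group, 21.4 and 55.6 CPM. CREX replicate 1, highest for P4ha2 in its group, also had the lowest sum there, 1125 CPM. Control replicate 1, highest for P4ha2 in its group, had the highest sum there, 752 CPM. EX replicate 3, highest for P4ha2 in its group, had 4311 CPM, close to the top of its group. With the muscle marker score as a covariate CR against control was 0.76 (edgeR adjusted p = 0.0404). Beyond this covariate, the part of muscle RNA in the P4ha2 values of BAT was not tested.

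In SkM all restricted libraries lay below their freely fed counterparts for P4ha2. It was 14.96, 15.3, 14.3 and 15.2 CPM in control and 11.95, 11.1 and 10.2 CPM in CR libraries, and 13.8, 12.4, 12.4 and 15.4 CPM in EX and 10.6, 9.49 and 12.1 CPM in CREX libraries. The control libraries lay close together. The difference was small (log2 fold change -0.38 ± 0.08, edgeR adjusted p = 0.00187 for the CR main effect) and below the fold minimum. P4ha1 (chromosome 10 from 59323296 to 59373304), the other alpha subunit, varied widely among the restricted BAT libraries, with 33.96, 28.5, 8.13 and 15.6 CPM in CR and 26.1, 7.04, 13.1 and 8.49 CPM in CREX mice, against 15.01, 10.2 and 16.9 CPM in control and 11.5, 13.6, 14.8 and 9.42 CPM in EX mice. CR replicates 1 and 2 and CREX replicate 1 stood above all other BAT libraries, and CR replicate 3 and CREX replicates 2 and 4 were the 3 lowest. No CR contrast of P4ha1 was called in BAT (log2 fold change 0.38 ± 0.35, edgeR adjusted p = 0.427 for the main effect) or in SkM (log2 fold change -0.25 ± 0.12, edgeR adjusted p = 0.112), where its libraries ranged from 14.4 to 29.2 CPM.

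The lysyl hydroxylase genes had the smallest CR main effects of the 10 in BAT and SkM. Plod1 (chromosome 4 from 147909753 to 147936767) averaged 45.4 ± 0.255 CPM (SD, n = 3) in control and 48.9 ± 4.03 CPM (SD, n = 4) in CR mice in BAT, and 44.3 ± 2.24 CPM (SD, n = 4) in EX and 43.5 ± 4.90 CPM (SD, n = 4) in CREX mice. Its CR main effect was 0.04 (standard error 0.06, edgeR adjusted p = 0.621) in BAT and -0.21 (standard error 0.08, edgeR adjusted p = 0.0621) in SkM. Plod2 (chromosome 9 from 92542223 to 92608428), whose product modifies telopeptide lysines, was among the scarcest of the 10 genes, with 26 to 142 counts a library. It averaged 2.31 ± 0.778 CPM (SD, n = 3) in control, 2.25 ± 0.238 CPM (SD, n = 4) in CR, 2.18 ± 0.448 CPM (SD, n = 4) in CREX and 3.12 ± 1.82 CPM (SD, n = 4) in EX mice in BAT. The EX mean was raised by replicate 3, with 5.84 CPM against 1.93 to 2.36 CPM in the other EX libraries. In BAT the CR main effect of Plod2 was -0.28 with this library and -0.03 without it (edgeR adjusted p = 0.37 and 0.907). In SkM it was -0.06 (standard error 0.17, edgeR adjusted p = 0.824).

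Of the genes for propeptide removal, Pcolce (chromosome 5 from 137605103 to 137613784) was lower under CR in BAT. In BAT it read 22.7, 21.2 and 17.9 CPM in control and 13.3, 15.9, 11.3 and 12.6 CPM in CR libraries, and 18.8, 21.9, 31.9 and 20.5 CPM in EX and 14.3, 12.9, 12.8 and 15.6 CPM in CREX libraries. In SkM the values were 27.5, 20.2, 21.4 and 22.5 CPM in control and 15.8, 13.6 and 15.1 CPM in CR, and 23.3, 21.8, 19.9 and 18.6 CPM in EX and 16.4, 12.8 and 16.6 CPM in CREX mice. All 4 pairs of restricted and freely fed groups were free of overlap. The CR main effect was called in BAT (log2 fold change -0.69 ± 0.11, edgeR adjusted p = 3.3e-04). In SkM it passed the adjusted p but not the fold minimum (log2 fold change -0.54 ± 0.09, edgeR adjusted p = 5.0e-04), with and without the tendon score (-0.50, edgeR adjusted p = 0.0156). CR against control was called in both tissues (log2 fold change -0.63, edgeR adjusted p = 0.00542 in BAT and log2 fold change -0.62, edgeR adjusted p = 0.0107 in SkM). These calls were lost, each by the fold minimum, in BAT without CR replicate 3 or control replicate 1 (log2 fold change -0.57 to -0.56, edgeR adjusted p = 0.00557 to 0.0261) and in SkM without CR replicate 2 or control replicate 1 (log2 fold change -0.56 to -0.52, edgeR adjusted p = 0.0163 to 0.0416). CREX against EX was called in BAT (log2 fold change -0.74 ± 0.16, edgeR adjusted p = 0.0242), but not without CREX replicate 1, 2 or 3 or EX replicate 2 or 3 (log2 fold change -0.76 to -0.55, edgeR adjusted p = 0.0194 to 0.0677).

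Adamts2 (chromosome 11 from 50602084 to 50807573), the procollagen N-proteinase gene, was lower under CR in BAT. Its BAT libraries read 7.97, 6.63 and 4.36 CPM in control, 3.59, 4.05, 3.57 and 3.49 CPM in CR, 4.58, 8.38, 12.5 and 3.73 CPM in EX and 4.45, 3.14, 3.27 and 2.98 CPM in CREX mice. The restricted libraries lay within a narrow range, and EX replicates 2 and 3 were the highest. Its CR main effect was called (log2 fold change -0.93 ± 0.23, edgeR adjusted p = 0.0075) and was -0.73 without EX replicate 3 (edgeR adjusted p = 0.0076). Sedentary CR against control was called as well (log2 fold change -0.78 ± 0.19, edgeR adjusted p = 0.0154), but not without control replicate 1 or 2 (log2 fold change -0.74 to -0.58, edgeR adjusted p = 0.0587 to 0.0697). CREX against EX was not called (log2 fold change -1.08 ± 0.38, edgeR adjusted p = 0.121) and was -0.68 without EX replicate 3 (edgeR adjusted p = 0.2), but it was called without EX replicate 4 (log2 fold change -1.29, edgeR adjusted p = 0.0495). It was also called on all libraries with the muscle marker score as a covariate (log2 fold change -1.19, edgeR adjusted p = 0.038). In SkM, Adamts2 averaged 5.50 ± 1.30 CPM (SD, n = 4) in control and 5.08 ± 0.401 CPM (SD, n = 3) in CR mice, and its CR main effect did not pass (log2 fold change -0.23 ± 0.13, edgeR adjusted p = 0.188).

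**Figure D3:**
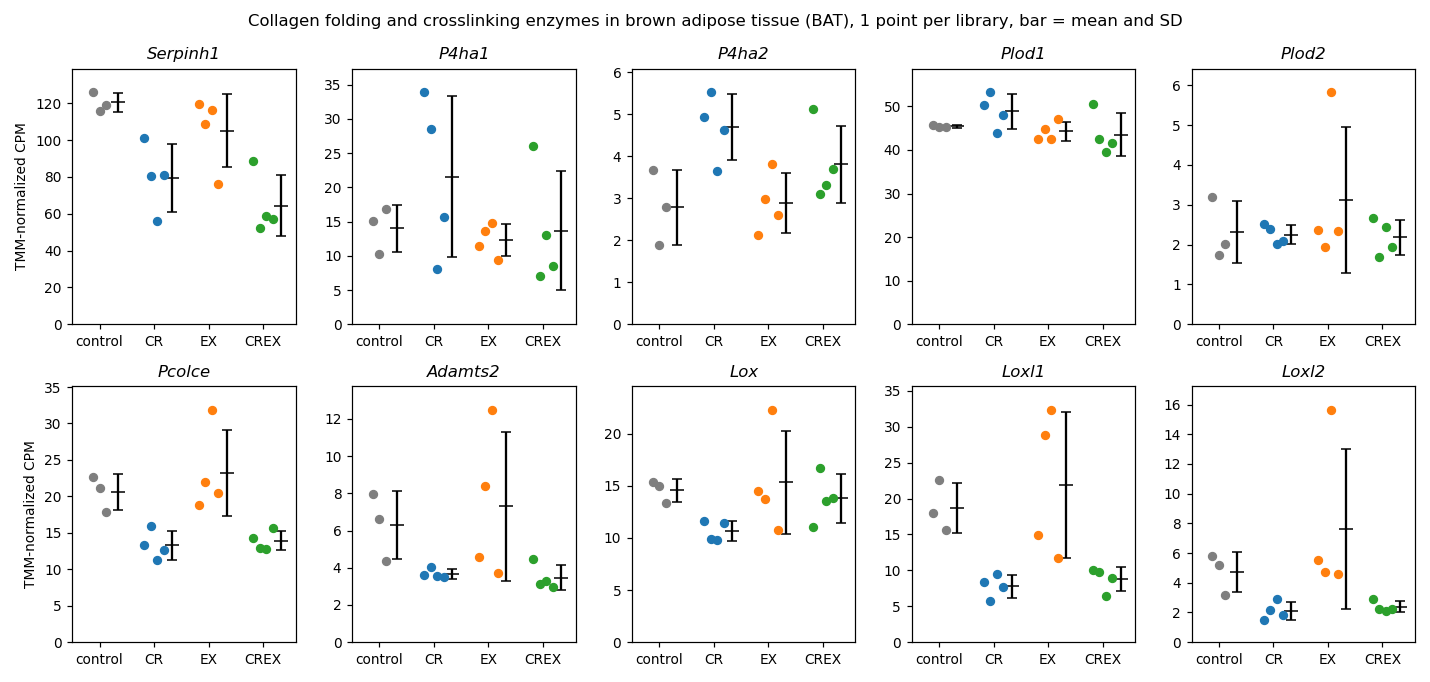
TMM-normalized CPM of each gene in every BAT library by group (linear axes from 0), with the mean and SD beside the points. Loxl1, Loxl2, Pcolce, Adamts2 and Serpinh1 are lower in the CR than in the control libraries without overlap, and EX replicate 3 is the highest EX point of Loxl2 (15.7 CPM) and Plod2 (5.84 CPM).

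Loxl1 (chromosome 9 from 58287738 to 58313186), a lysyl oxidase best known for its part in elastic fibre assembly, fell under CR in both tissues. BAT libraries read 17.9, 22.5 and 15.6 CPM in control and 8.39, 5.67, 9.48 and 7.65 CPM in CR mice, and 14.9, 28.8, 32.4 and 11.7 CPM in EX and 10.05, 9.78, 6.41 and 8.89 CPM in CREX mice. SkM libraries read 13.3, 11.2, 12.2 and 11.005 CPM in control and 6.84, 4.69 and 6.30 CPM in CR mice, and 12.3, 9.96, 9.09 and 11.2 CPM in EX and 7.46, 4.27 and 10.4 CPM in CREX mice. Only the SkM CREX and EX libraries overlapped among these 4 pairs, through CREX replicate 3. The CR main effect was called in BAT (log2 fold change -1.29 ± 0.22, edgeR adjusted p = 8.5e-04) and in SkM (log2 fold change -0.77 ± 0.16, edgeR adjusted p = 0.00215), with any 1 library left out in either tissue. So was CR against control (log2 fold change -1.26 ± 0.18, edgeR adjusted p = 0.0016 in BAT and log2 fold change -0.998 ± 0.15, edgeR adjusted p = 0.00213 in SkM), while CREX against EX was not (log2 fold change -1.32 ± 0.35, edgeR adjusted p = 0.0659 and log2 fold change -0.53 ± 0.26, edgeR adjusted p = 0.196). Without EX replicate 4 the BAT comparison of CREX and EX was called (log2 fold change -1.53, edgeR adjusted p = 0.0259), and without EX replicate 3 it was -1.07 (edgeR adjusted p = 0.125). On all libraries with the muscle marker score as a covariate it was called (log2 fold change -1.41, edgeR adjusted p = 0.022). With the tendon score as a covariate the SkM main effect was -0.56 (edgeR adjusted p = 0.0713). Under it CR against control in SkM stayed called (log2 fold change -0.999, edgeR adjusted p = 0.00267), and CREX against EX was 0.12 (edgeR adjusted p = 0.986).

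Loxl2 (chromosome 14 from 69609068 to 69695834), whose product crosslinks collagen IV of basement membranes, was lower under CR in BAT. It read 5.78, 5.18 and 3.21 CPM in control and 1.51, 2.19, 2.87 and 1.83 CPM in CR libraries, and 5.50, 4.74, 15.7 and 4.60 CPM in EX and 2.94, 2.26, 2.07 and 2.26 CPM in CREX libraries. Neither pair overlapped, and EX replicate 3 lay far above every other library. Its CR main effect was -1.42 (standard error 0.28, edgeR adjusted p = 0.00178), and -1.11 without EX replicate 3 (edgeR adjusted p = 1.8e-04). CR against control was called (log2 fold change -1.16 ± 0.25, edgeR adjusted p = 0.00984). CREX against EX was not called with EX replicate 3 (log2 fold change -1.68 ± 0.43, edgeR adjusted p = 0.0542) and was called, with a smaller difference, without it (log2 fold change -1.05, edgeR adjusted p = 0.0122). It was also called without EX replicate 4 (log2 fold change -1.86, edgeR adjusted p = 0.0487). The muscle marker score as a covariate gave a call on all libraries as well (log2 fold change -1.78, edgeR adjusted p = 0.0402). In SkM the libraries read 6.95, 5.31, 5.41 and 6.45 CPM in control, 3.16, 2.66 and 4.17 CPM in CR, 6.74, 5.43, 4.55 and 3.75 CPM in EX and 3.43, 2.65 and 3.23 CPM in CREX mice, again without overlap in either pair. There the CR main effect (log2 fold change -0.79 ± 0.15, edgeR adjusted p = 9.4e-04) and CR against control (log2 fold change -0.85 ± 0.18, edgeR adjusted p = 0.0139) were called, with every library left out in turn. CREX against EX was not called (log2 fold change -0.73 ± 0.22, edgeR adjusted p = 0.0567) except without CREX replicate 1 or EX replicate 4 (log2 fold change -0.82 and -0.86). With the tendon score as a covariate the SkM main effect of Loxl2 was -0.77 (edgeR adjusted p = 0.0209). CR against control was then -0.85 (edgeR adjusted p = 0.0146) and CREX against EX -0.38 (edgeR adjusted p = 0.948).

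Lox, the founding lysyl oxidase, went against its paralogs in SkM. Control libraries held 1.99, 1.40, 2.14 and 3.43 CPM and CR libraries 5.64, 3.21 and 6.64 CPM. EX libraries held 3.73, 1.71, 2.03 and 1.36 CPM and CREX libraries 4.24, 3.23 and 4.29 CPM. The restricted libraries were higher except for an overlap with control replicate 4 and EX replicate 1. The CR main effect was called (log2 fold change 1.01 ± 0.24, edgeR adjusted p = 0.00525), also with any 1 of the 14 libraries left out. CR against control was called (log2 fold change 1.202 ± 0.31, edgeR adjusted p = 0.0283), but not without CR replicate 1 or 3 or control replicate 1, 2 or 3 (log2 fold change 0.97 to 1.18, edgeR adjusted p = 0.0631 to 0.0961), and CREX against EX was not (log2 fold change 0.82 ± 0.32, edgeR adjusted p = 0.111) except without EX replicate 1 (log2 fold change 1.199, edgeR adjusted p = 0.0338). With the tendon score as a covariate the main effect was 1.42 (edgeR adjusted p = 0.00952). Under the same covariate CR against control was 1.21 (edgeR adjusted p = 0.0326) and CREX against EX was 2.07 (edgeR adjusted p = 0.758). In that CREX against EX fit 0 genes of all tested were called. Per length, Loxl1 averaged 3.62 ± 0.318 and Lox 0.469 ± 0.180 CPM per kb in control muscle (SD, n = 4), and 1.80 ± 0.339 and 1.08 ± 0.370 CPM per kb in CR muscle (SD, n = 3). Loxl1 thus led Lox in both groups by a margin that was narrower in the CR group. Lox was more abundant in BAT than in SkM, and the part of adipocyte RNA in its SkM values was not tested.

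In BAT, Lox read 15.4, 14.98 and 13.3 CPM in control, 11.6, 9.87, 9.85 and 11.4 CPM in CR, 14.5, 13.7, 22.3 and 10.8 CPM in EX and 11.1, 16.7, 13.5 and 13.8 CPM in CREX libraries. All CR libraries were below all control libraries, but CREX and EX libraries overlapped. The difference between CR and control was below the fold minimum (log2 fold change -0.44 ± 0.10, edgeR adjusted p = 0.0107), and the CR main effect did not pass (log2 fold change -0.30 ± 0.13, edgeR adjusted p = 0.0898).

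**Figure D4:**
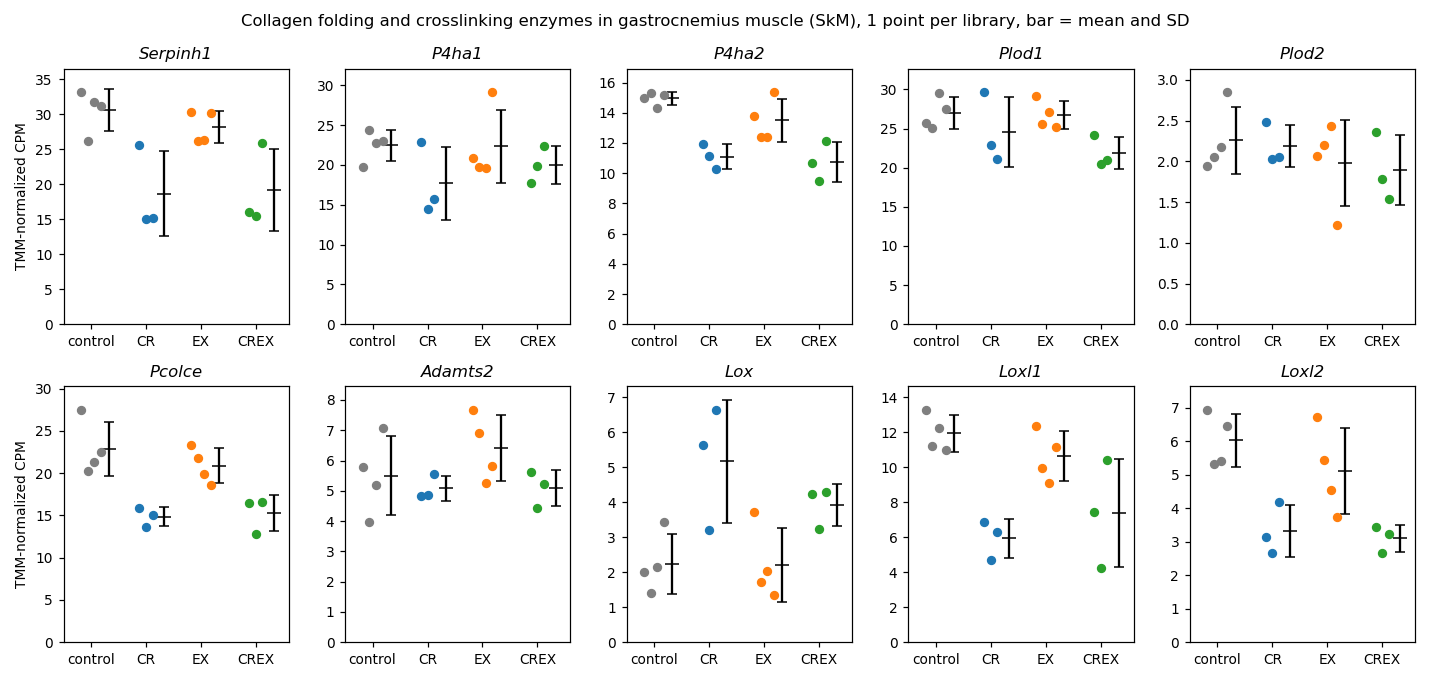
TMM-normalized CPM of each gene in every SkM library by group (linear axes from 0), with the mean and SD beside the points. Lox is higher in the CR and CREX libraries (3.21 to 6.64 CPM) than in all but 2 of the freely fed libraries, and the CR libraries of Loxl1, Loxl2, Serpinh1, Pcolce and P4ha2 all lie below the control libraries.

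**Figure D5:**
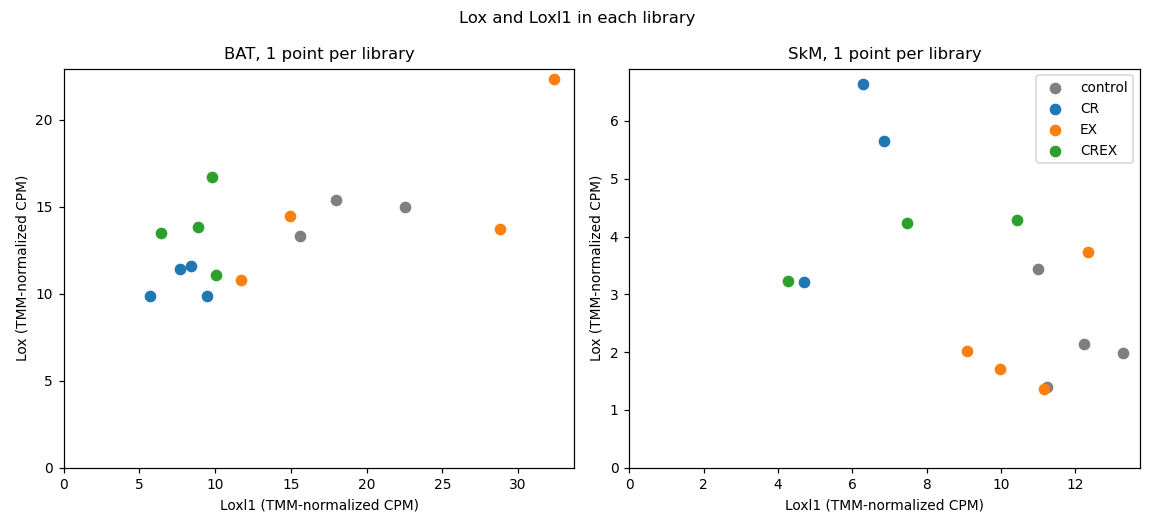
Lox against Loxl1 (both in TMM-normalized CPM, linear axes from 0) in each BAT and SkM library, coloured by group. In BAT the CR points lie left of and below the control points, and in SkM all CR and CREX points except CREX replicate 3 lie left of every control and EX point.

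Whether the sedentary CR response differed between the tissues was tested as 1 contrast on the 14 sedentary libraries. As between the control tissues, BAT and SkM libraries were treated as independent, since no label ties them to a mouse. Lox (log2 fold change -1.63 ± 0.34, edgeR adjusted p = 0.00879) and P4ha2 (log2 fold change 1.18 ± 0.23, edgeR adjusted p = 0.00612) passed, 2 of the 10 genes, where 6.29% of 14369 genes did. A negative value is a lower CR effect in BAT. Lox averaged 10.7 ± 0.956 CPM (SD, n = 4) in CR and 14.6 ± 1.11 CPM (SD, n = 3) in control BAT, but 5.16 ± 1.77 CPM (SD, n = 3) in CR and 2.24 ± 0.858 CPM (SD, n = 4) in control SkM. P4ha2 averaged 4.69 ± 0.783 CPM (SD, n = 4) and 2.79 ± 0.895 CPM (SD, n = 3) in BAT and 11.1 ± 0.854 CPM (SD, n = 3) and 14.9 ± 0.445 CPM (SD, n = 4) in SkM. Both calls held with each of the 14 libraries left out. Loxl1 (log2 fold change -0.25 ± 0.25, edgeR adjusted p = 0.598), Pcolce (log2 fold change -0.01 ± 0.18, edgeR adjusted p = 0.986) and Serpinh1 (log2 fold change 0.12 ± 0.26, edgeR adjusted p = 0.838) did not pass. For Adamts2, called in BAT and not in SkM, the difference did not pass either (log2 fold change -0.66 ± 0.28, edgeR adjusted p = 0.17). P4ha1 passed only without BAT CR replicate 3 (log2 fold change 1.25, edgeR adjusted p = 0.0445), and not with all libraries (log2 fold change 0.95 ± 0.54, edgeR adjusted p = 0.327).

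Training was accompanied by no called change in these genes. EX against control called 0 of the 10 genes in BAT, where 0% of all genes were called, and 0 in SkM, where 0.0775% were. CREX against CR called 0 in BAT (0.00763% of all genes) and 0 in SkM (0%), and the EX main effect 0 in BAT (0.00718%) and 0 in SkM (0.0294%). In these 6 edgeR contrasts 1 gene of 10, Lox, had an unadjusted p under 0.05 in BAT CREX against CR and 0 in the others, and DESeq2 called 0 in each. Log2 fold changes of the EX main effect ran from -0.42 to 0.44 in BAT and from -0.21 to 0.11 in SkM. The lowest and highest were P4ha1 (standard error 0.34) and Loxl2 (standard error 0.28) in BAT. Without EX replicate 3 they were -0.46 and 0.13. With the muscle marker score as a covariate P4ha1 and Loxl2 were -0.145 and 0.0574, and Adamts2 moved from 0.0626 to -0.323. Muscle marker sums in BAT had medians of 60.2 CPM in control and 429 in CR, against 2824 in EX and 1917 in CREX libraries. The part of muscle RNA in these values was not tested further. The interaction of CR and EX was called for 0 of the 10 genes in either tissue by edgeR and DESeq2 (0% of all genes in both), with 0 at an unadjusted p under 0.05. Its values ran from -0.52 to 0.29 in BAT and from -0.37 to 0.48 in SkM, with standard errors up to 0.69 (P4ha1 in BAT). The BAT values rested in part on EX replicate 3, without which they ran from -0.36 (P4ha1) to 0.53 (Lox), and the interaction of Loxl2 was -0.52 with that library and 0.11 without it. Over all genes tested, edgeR at an unadjusted p under 0.05 gave 972 for EX against control and 800 for the interaction in BAT, and 477 for CREX against CR and 669 for the interaction in SkM. DESeq2 called 36, 3, 36 and 1 genes there.

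Other genes of the same pathway were read from lists for the CR main effect, beside which 11.8% of all genes were called in BAT and 14.1% in SkM. Of further folding and modifying genes in BAT, 4 of 20 were called lower and 0 higher (median log2 fold change -0.05), and in SkM 5 of 20 were called lower and 0 higher (median log2 fold change -0.10). Creb3l1, a transcription factor of the secretory pathway known to drive collagen genes, was lower in both (log2 fold change -1.48 ± 0.19, edgeR adjusted p = 4.7e-05 in BAT and log2 fold change -1.10 ± 0.15, edgeR adjusted p = 8.8e-05 in SkM). Sec24d, a coat protein for procollagen export, was lower in BAT (log2 fold change -0.66 ± 0.13, edgeR adjusted p = 0.00107), and the prolyl 3-hydroxylase complex gene Crtap had a log2 fold change -0.25, edgeR adjusted p = 0.00476 in BAT, below the fold minimum. P3h3 and Fkbp10, the other called genes in BAT, had log2 fold changes of -0.62 and -0.71. In SkM, Colgalt2, a collagen galactosyltransferase, was lower (log2 fold change -0.84 ± 0.18, edgeR adjusted p = 0.00244), and so were P3h2, P3h3 and Fkbp11 (log2 fold change -0.88, -0.67 and -1.16). P4hb, which encodes the beta subunit shared by prolyl 4-hydroxylases, passed the adjusted p with a positive value just under the fold minimum in SkM (log2 fold change 0.56 ± 0.11, edgeR adjusted p = 0.00113). Of further cleaving and crosslinking genes in BAT, 3 of 6 were called lower and 0 higher (median log2 fold change -0.52), namely Loxl3 (log2 fold change -0.86 ± 0.23, edgeR adjusted p = 0.01), Adamts14 (log2 fold change -1.59 ± 0.46, edgeR adjusted p = 0.0155) and Adamts3 (log2 fold change -0.62 ± 0.22, edgeR adjusted p = 0.0397). In SkM 0 of 6 were called lower and 0 higher (median log2 fold change -0.46). Of these Tgm2, a transglutaminase (log2 fold change 0.43, edgeR adjusted p = 0.00319), Loxl3 (log2 fold change -0.57, edgeR adjusted p = 0.00989) and Bmp1 (log2 fold change -0.35, edgeR adjusted p = 0.036) passed the adjusted p alone.

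Of the listed collagen, elastin and associated matrix genes in BAT, 13 of 18 were called lower and 1 higher (median log2 fold change -1.14), and in SkM 12 of 19 were called lower and 1 higher (median log2 fold change -0.94). The smallest p-values in BAT belonged to the basement membrane collagens Col4a2 (log2 fold change -0.65 ± 0.05, edgeR adjusted p = 3.1e-07) and Col4a1 (log2 fold change -0.59 ± 0.05, edgeR adjusted p = 5.0e-07) and to Col5a3 (log2 fold change -0.81 ± 0.08, edgeR adjusted p = 3.5e-06). In SkM they belonged to Col3a1 (log2 fold change -2.42 ± 0.15, edgeR adjusted p = 2.4e-07), Col6a2 (log2 fold change -1.33 ± 0.11, edgeR adjusted p = 1.3e-06) and Col1a1 (log2 fold change -2.30 ± 0.19, edgeR adjusted p = 2.7e-06), fibrillar and microfibrillar collagens. Col11a2 was the gene called higher in both tissues (log2 fold change 0.76 ± 0.17, edgeR adjusted p = 0.00327 in BAT and log2 fold change 1.47 ± 0.15, edgeR adjusted p = 8.5e-06 in SkM). Among general chaperones of the endoplasmic reticulum in BAT 0 of 12 were called lower and 0 higher (median log2 fold change 0.04), and in SkM 0 of 12 were called lower and 0 higher (median log2 fold change 0.07). Hyou1 (log2 fold change -0.23, edgeR adjusted p = 0.0103) and Dnajb11 (log2 fold change 0.15, edgeR adjusted p = 0.0224) in BAT passed the adjusted p alone, as did Pdia3 (log2 fold change -0.40, edgeR adjusted p = 4.5e-04), Hspa5 (log2 fold change 0.30, edgeR adjusted p = 0.00472) and Creld2 (log2 fold change 0.44, edgeR adjusted p = 0.0217) in SkM.

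Among hypoxia response genes in BAT 0 of 14 were called lower and 0 higher (median log2 fold change 0.15), and in SkM 1 of 14 were called lower and 0 higher (median log2 fold change 0.10). In BAT, Pdk1, a kinase that restrains pyruvate oxidation (log2 fold change 0.58 ± 0.08, edgeR adjusted p = 6.3e-05), and Ldha, lactate dehydrogenase A (log2 fold change 0.43 ± 0.07, edgeR adjusted p = 1.8e-04), passed the adjusted p with positive values under the fold minimum, and Kdm3a with a negative one (log2 fold change -0.31 ± 0.06, edgeR adjusted p = 0.00119). Slc2a1, Bnip3 and Egln1 also passed the adjusted p alone in BAT (log2 fold change 0.41, 0.30 and -0.23). In SkM, Vegfa, the angiogenic growth factor, was lower (log2 fold change -0.65 ± 0.15, edgeR adjusted p = 0.00428), and Egln1 (log2 fold change -0.28, edgeR adjusted p = 0.0108), Pdk1 (log2 fold change -0.45, edgeR adjusted p = 0.011) and Egln3 (log2 fold change 0.54, edgeR adjusted p = 0.0496) passed the adjusted p alone. Among TGF-beta ligands and targets in BAT 3 of 12 were called lower and 0 higher (median log2 fold change -0.48), and in SkM 0 of 11 were called lower and 0 higher (median log2 fold change -0.22). Ltbp1, which anchors latent TGF-beta in the matrix (log2 fold change -0.72 ± 0.18, edgeR adjusted p = 0.0058), was lower in BAT, as was Skil (log2 fold change -1.22 ± 0.35, edgeR adjusted p = 0.0182), a feedback inhibitor of SMAD signalling. Tgfb1 passed the adjusted p below the fold minimum in BAT (log2 fold change -0.40 ± 0.08, edgeR adjusted p = 0.00126) and in SkM (log2 fold change -0.43 ± 0.14, edgeR adjusted p = 0.0263), as did Tgfb3 (log2 fold change -0.54 ± 0.08, edgeR adjusted p = 1.5e-04) and, with a positive value, Tgfbr1 (log2 fold change 0.56 ± 0.09, edgeR adjusted p = 4.3e-04) in SkM.

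Markers of other cell types were read in the same contrasts. Fibroblast markers were called lower for 2 of 7 tested and higher for 0 in BAT and lower for 1 of 7 tested and higher for 0 in SkM. Their median log2 fold change was -0.57 in BAT and -0.43 in SkM. Their sum was 211 to 253 CPM in control, 162 to 207 in CR, 226 to 331 in EX and 184 to 203 in CREX libraries of BAT, and 307 to 403, 261 to 340.3, 272 to 380.3 and 279 to 306 CPM in SkM. Pdgfra, which defines fibroblast-like progenitors, had a log2 fold change -0.39, edgeR adjusted p = 0.0201 in BAT and a log2 fold change 0.19, edgeR adjusted p = 0.136 in SkM. In SkM its sign was opposite to the median of the fibroblast list. Tendon markers in SkM were called lower for 4 of 5 tested and higher for 1: Thbs4, Comp, Fmod and Tnmd were lower, and Scx, the tendon transcription factor, was higher (log2 fold change 0.82 ± 0.22, edgeR adjusted p = 0.0106). Endothelial markers were called lower for 3 of 5 tested and higher for 0 in SkM and lower for 0 of 5 tested and higher for 0 in BAT. Smooth muscle markers were called lower for 1 of 4 tested and higher for 0 in BAT (Acta2, lower) and lower for 0 of 5 tested and higher for 0 in SkM, and macrophage markers lower for 1 of 5 tested and higher for 0 in BAT (Adgre1, lower) and lower for 0 of 5 tested and higher for 0 in SkM. Of 6 mesothelial markers 1 was testable in BAT, Lrrn4, which was higher (log2 fold change 1.11 ± 0.18, edgeR adjusted p = 4.2e-04), while Wt1 and Upk1b were at 0 in every BAT library. Brown adipocyte markers in BAT were called lower for 1 of 7 tested and higher for 1, with Ucp1 the lower one (log2 fold change -1.01 ± 0.13, edgeR adjusted p = 8.3e-05) and Elovl3 the higher one. Beyond the muscle and tendon scores used as covariates, the part of these cell types in the results was not tested.

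The 10 genes did not vary as 1 block. Across the 15 BAT libraries, the correlation of a gene with the mean of all 10 (each standardised on log2 CPM) was highest for Adamts2 (r = 0.907), Pcolce (0.837) and Serpinh1 (0.808) and lowest for P4ha2 (0.0715). In a comparison added after the data were seen, without EX replicate 3 it was 0.868, 0.773, 0.894 and -0.0767 for these genes, while Lox moved from 0.515 to 0.171 and Plod2 from 0.774 to 0.501. Across the 14 SkM libraries it was highest for Pcolce (0.909) and Serpinh1 (0.892) and negative for Lox (-0.284). Each gene is part of the mean it is compared with, and the libraries share group, depth and cell makeup, so these values are descriptions. By the same measure, among 11891 other genes with a mean of at least 1 CPM, those most like the 10-gene mean in BAT were Gja5 (Pearson's r = 0.909, Spearman's rho = 0.80), Cd248 (Pearson's r = 0.908, Spearman's rho = 0.861), Cbx6 (Pearson's r = 0.905, Spearman's rho = 0.843), Emp3 (Pearson's r = 0.897, Spearman's rho = 0.918) and Coro1c (Pearson's r = 0.896, Spearman's rho = 0.925). Without EX replicate 3 the Pearson correlations of these 5 genes ran from 0.849 to 0.904. In SkM, among 11669 genes, they were Plxnb2 (Pearson's r = 0.897, Spearman's rho = 0.886), Idua (Pearson's r = 0.890, Spearman's rho = 0.789), Pea15a (Pearson's r = 0.889, Spearman's rho = 0.890), Rnf128 (Pearson's r = 0.881, Spearman's rho = 0.855) and Hspa1l (Pearson's r = 0.880, Spearman's rho = 0.842).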

How the data were processed

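RNA-seq libraries of BAT (15) and SkM (14) were analysed. The authors trimmed reads with trim-galore, aligned them to mm10 with STAR 2.7.10a and quantified genes with RSEM (1.2.28 in the submitters' processing notes, another release in the paper), and the deposited values are expected counts per gene symbol without normalization. The annotation is not given in the sources used here. Expected counts were rounded. Symbols in date form (27) and repeated symbols (2) are not named. Gene coordinates and exon lengths (union of exons) came from GENCODE M21 on GRCm38, the assembly of mm10.

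Each contrast was fitted with edgeR 4.0.16 (R 4.3.3; robust quasi-likelihood test, TMM, filterByExpr) on the libraries of its groups, and both main effects and their interaction in 1 fit over the 4 groups of a tissue. A gene was called at a Benjamini-Hochberg adjusted p under 0.05 over all genes tested and more than 1.5-fold change, as in the paper, whose tool was DESeq2. All 10 genes passed the filter in all 16 contrasts. The standard error is the absolute log2 fold change divided by the square root of F. Contrasts that share libraries are not independent. Scripts were tested on simulated data. The 10 members and the lists were chosen with earlier results of these data known. Named genes are the members, the 3 per list with the smallest p of the CR main effect and the 5 most alike in each tissue, except 1 gene that is not reported here. Further called or marker genes were named with their values known, where a count was small. Alternatives were DESeq2 1.42.0, RLE factors, other filters, no fold minimum, 1 fit over all groups, a replicate block, a muscle or tendon marker score (mean log2(CPM + 1)) as a covariate, and each library left out. Within a tissue, no label ties same-numbered libraries together. No contrast had all its pairs correlated above 0.1, but so few pairs cannot exclude that same-numbered libraries belong together. Replicates of a group differed beyond sampling noise (chi-square per degree of freedom of at least 6.2). How RSEM divided reads among the paralogous lysyl oxidase and hydroxylase genes was not examined.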

Additional observations from a re-analysis of the deposited data

Results flagged for a closer look

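In a check of the highest and lowest library in groups of 4 (gap to the nearest library over the range of the group, 50 tests), 3 values passed Dixon's critical value, which chance passes in about 1 of 20 groups. Loxl2 (ratio 0.918) and Plod2 (ratio 0.891) were high in the BAT library EX replicate 3, at 15.7 and 5.84 CPM against 4.60 to 5.50 and 1.93 to 2.36 CPM in the other EX libraries. That library also had the highest sums of tendon (68.7 CPM), fibroblast (331 CPM), macrophage (56.95 CPM) and smooth muscle markers (86.9 CPM, next highest 67.9 CPM) in BAT, and the part of these cells was not tested. P4ha1 (ratio 0.864) was high in the SkM library EX replicate 4, at 29.2 CPM against 19.6 to 20.9 CPM in the other EX libraries.

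The sedentary CR response differed between BAT and SkM by the test of the difference itself for Lox (log2 difference -1.63, edgeR adjusted p = 0.00879) and P4ha2 (log2 difference 1.18, edgeR adjusted p = 0.00612), in opposite senses.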

How the results depend on the processing

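Of 28 calls on the 10 genes, 15 held under every alternative run and 0 of 480 alternatives turned a direction. Among these, dropping the fold minimum reuses the main fit, so it could neither end a call nor turn a direction. The rest lost the adjusted p or the fold minimum under at least 1 setting. Of 132 results not called, 40 of 2360 alternatives made a call and 128 changed sign without one. CR against control in BAT gave 6 of 10 genes, 1 with a replicate block and 3 in the fit on all groups of the tissue. CREX against EX in BAT gave 1 gene, 5 with DESeq2, 5 in the fit on all groups and 4 with the muscle score. In SkM, CREX against EX gave 0 genes, and 1 with no fold minimum, with DESeq2, with no filter and in the fit on all groups. The SkM CR main effect gave 4 genes, 2 with the tendon score, and BAT against SkM gave 5, 8 with no fold minimum. The cause was not tested, apart from the settings' own construction. With each library left out the counts ran from 3 to 5 (CR against control) and 0 to 5 (CREX against EX) in BAT, 2 to 4 and 0 to 1 in SkM, 5 to 6 and 3 to 4 for the CR main effects of BAT and SkM, 4 to 5 between tissues, 2 to 3 for the tissue difference of CR effects, and 0 to 0 for all EX contrasts and interactions.

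The replicate block paired libraries by number only. Mean correlations of same-numbered libraries were -0.302 for CR against control and 0.123 for CREX against EX in BAT, and 0.146 and 0.0296 in SkM. In no comparison did every library correlate best with its own number, but in SkM CR against control 5 of 6 did. In BAT CR against control 0 of 6 did. In BAT the block ended 5 calls of CR against control (Loxl1, Loxl2, P4ha2, Serpinh1 and Adamts2) and the call of Pcolce in CREX against EX, and it added Serpinh1 there. It left the other counts as they were.

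Over all genes tested, CR against control in BAT called 1430, 2778 with no fold minimum and 929 with the block, and CREX against EX 594, 1061 with no fold minimum, 880 in the fit on all groups and 363 to 582 with 1 library left out. In SkM, CREX against EX called 1163, 1781 with no fold minimum, 646 with the block and 0 with the tendon score, and from 343 without CREX replicate 2 to 2570 without CREX replicate 1. CR main effects called 1642 in BAT and 1922 in SkM, 4648 and 4556 with no fold minimum. EX contrasts and interactions called 0 to 10 genes, up to 79 under another setting with all libraries and, with 1 library left out, up to 200 (SkM EX main effect), 180 (SkM interaction) and 99 (SkM CREX against CR).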
